A study of Homo sapiens with 4 samples.

Results

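Enteric neurons without a transmitter identity are the nuclei of the enteric neuron class that the deposited annotation calls negative for all 6 identities it scores, which are nitrergic, cholinergic, catecholaminergic, serotonergic, glutamatergic and GABAergic. There were 590 of them among 6321 enteric neurons with an identity call, and they were set against the 5731 neurons that carried at least 1 identity (1978 with exactly 1 and 3753 with 2 or more). The nuclei come from enteric ganglioids, free-floating clusters of neurons, progenitors and other cells differentiated from the H9 human embryonic stem cell line through enteric neural crest. All 4 samples were grown in suspension with GDNF, 2 were untreated controls and 2 received PP121, a multi-targeted kinase inhibitor, at 2 µM from day 15 to day 20. Per the deposited annotation, replicate 1 of both groups was collected on day 42 and replicate 2 on day 38. Each sample is a differentiation replicate of the same line, so the samples describe H9 cultures and not donors. Control replicate 1 held 254 of the neurons without identity and control replicate 2 held 128, while PP121 replicate 1 held 138 and PP121 replicate 2 held 70. A further 236 neurons have no call at all in the annotation and belong to neither group.

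Enteric neurons relax or contract gut muscle, move fluid and sense the gut content, and each class is known by the enzymes and transporters of its transmitter: nitric oxide synthase for nitrergic neurons, choline acetyltransferase for cholinergic neurons, glutamate decarboxylase for GABAergic neurons, and vesicular transporters for glutamatergic neurons. A neuron born from a progenitor first leaves the cell cycle and switches on pan-neuronal genes, and transmitter genes, ion channels and synaptic genes follow over days. In this annotation an identity rests on values imputed from the other genes of the nucleus. The nitrergic call needs an imputed NOS1 value above 0 and a positive score for a set of nitric oxide genes, and the gene sets of the other identities are not given in the sources used here. Gene differences between neurons without and with an identity therefore go with the annotation and are no independent evidence for it.

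Neurons without identity made up 11.1% of called neurons in control replicate 1 (95% exact Clopper-Pearson interval 9.86 to 12.5) and 10.4% in control replicate 2 (8.73 to 12.2). In the PP121 samples the share was 7.31% (6.18 to 8.58) and 7.65% (6.01 to 9.57), below both controls. The intervals cover counting error only. The controls averaged 10.7% ± 0.526 (SD, n = 2). The PP121 samples averaged 7.48% ± 0.238 (SD, n = 2), which is -3.26 percentage points from the controls. A two-sided exact permutation test of 2 against 2 samples cannot give a p below 0.333, and gave 0.333. The direction turned when the neurons with no call were counted as lacking an identity: the shares were then 11.7% and 11.5% in the controls against 13.8% and 13.4% with PP121. Neurons with no call were 0.695% and 1.28% of neurons in the controls against 7.04% and 6.25% with PP121.

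Nuclei without identity held fewer molecules. The median number of unique molecular identifiers (UMIs, each a captured RNA molecule) was 5970 against 7506 in neurons with an identity in control replicate 1, 6302 against 7970.5 in control replicate 2, 5370.5 against 6998 in PP121 replicate 1 and 5146.5 against 7928 in PP121 replicate 2. The median was thus lower in 4 of 4 samples, with differences from -1536 to -2781.5 UMIs. Over samples the mean difference was -1903 UMIs ± 588 (SD, n = 4 pairs; exact sign-flip permutation p = 0.125, the smallest 4 pairs can give). The median rose further with each added identity up to 3 in every sample, for example from 5970 at 0 to 6823.5 at 1, 7682 at 2 and 8306 at 3 in control replicate 1. Against neurons with exactly 1 identity the mean difference was smaller, at -991 UMIs.

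**Figure D1:**
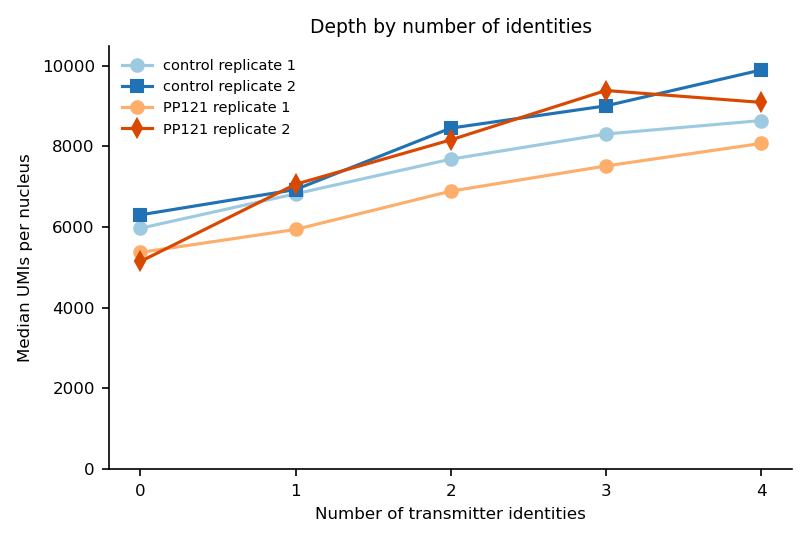
Median UMIs per nucleus (vertical axis) against the number of transmitter identities a neuron carries (horizontal axis, 0 to 4), with a line per sample. In each sample the lowest point is at 0 identities, between 5146.5 and 6302 UMIs.

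The share without identity also fell from shallow to deep nuclei. In control replicate 1 it was 16.7% (13.7 to 20.0) of neurons under 5000 UMIs, 10.2% (8.47 to 12.1) from 5000 to 10000 UMIs and 7.61% (5.64 to 9.99) at 10000 or more. In PP121 replicate 2 the same shares were 14.5% (10.2 to 19.8), 5.57% (3.52 to 8.31) and 5.12% (2.89 to 8.30). The order was the same in the other samples. Among neurons of at least 5000 UMIs the shares were 9.27% and 8.73% in the controls against 5.72% and 5.38% with PP121.

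**Figure D2:**
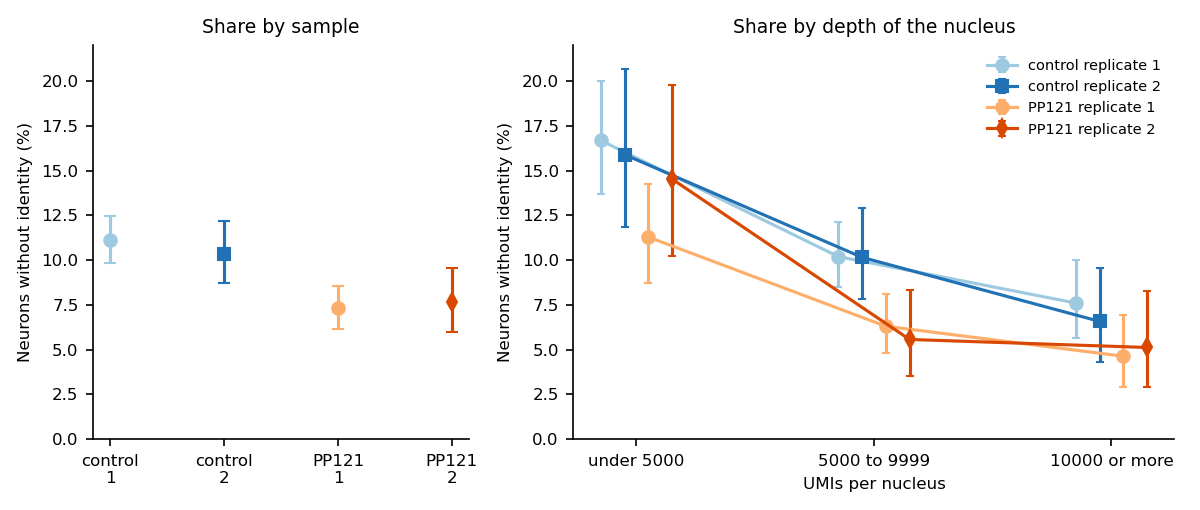
Percent of called neurons without a transmitter identity, by sample (left) and by sample and UMIs per nucleus (right), with 95% exact binomial intervals for counting error as bars. Both PP121 samples, at 7.31% and 7.65%, lie below both controls, and the share is highest under 5000 UMIs in each sample.

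Transmitter genes themselves were read from the raw UMIs, after each nucleus was thinned to 2000 UMIs to a fixed depth. Because these genes define the identities, their values are a description. Any of 13 core genes of synthesis or vesicular transport (listed with the processing, and chosen after the data were seen) had a UMI in 77 of 585 nuclei without identity, 13.2% (10.5 to 16.2), against 1824 of 5716 with an identity, 31.9% (30.7 to 33.1). In mesenchymal nuclei, which should lack these genes, it was 30 of 898, 3.34% (2.27 to 4.73). By sample the share without identity was 17.5% and 11.8% in the controls against 10.9% and 4.29% with PP121. In neurons with an identity it was 34.6%, 26.2%, 35.3% and 26.1% in the same order. The shares without and with identity do not overlap, and the share without identity lies above the mesenchymal share in the pooled nuclei. Of the 898 mesenchymal nuclei, 405 and 420 came from control and PP121 replicate 2. By sample the mesenchymal share was lower too, at 5.00%, 4.44%, 0 of 33 nuclei and 2.38% in the same order. The intervals of these groups overlap in each sample, however. In PP121 replicate 2 they were 0.893 to 12.0 (3 of 70 without identity) and 1.15 to 4.33 (10 of 420 mesenchymal).

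Of the core genes, GAD2 was found in the most nuclei of both groups. This glutamate decarboxylase gene had a UMI in 4.96% (3.34 to 7.04) of nuclei without identity and 13.8% (12.9 to 14.7) of those with one, against 0.445% of mesenchymal nuclei. GAD1, its paralog, was at 1.54% (0.706 to 2.90) and 7.26% (6.60 to 7.96). SLC17A6, the vesicular glutamate transporter of many excitatory neurons, was at 2.56% (1.44 to 4.19) and 6.19% (5.58 to 6.85). CHAT, choline acetyltransferase, was at 0.684% and 3.13%, and TH, tyrosine hydroxylase, at 0.684% and 2.08%. SLC32A1, the vesicular GABA transporter, was at 1.71% (0.823 to 3.12) and 2.17% (1.81 to 2.58), values whose intervals overlap.

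NOS1 was found in 1 of 585 nuclei without identity, 0.171% (0.00433 to 0.949), and 46 of 5716 with one, 0.805% (0.590 to 1.07), but mesenchymal nuclei stood at 0.668% (0.246 to 1.45). At this depth NOS1 UMIs could not be told from background. The list of 29 transmitter genes as a whole separated the groups less, at 66.0% without and 75.6% with an identity, against 61.9% of mesenchymal nuclei, since it holds widely used genes such as NOS1AP (10.8% and 13.7%) and ASL (6.496% and 6.65%). It was lower without identity in 4 of 4 samples.

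The study annotated the neuron class with 11 neuron markers, so their level in these nuclei restates how they were chosen and is a description. The markers summed to 5664 to 8145 CPM (counts per 1000000 UMIs of the summed nuclei) in neurons without identity, 8104 to 11451 in neurons with an identity, and 974 to 2101 in the progenitor 1 and progenitor 2 classes. All 11 were detected without identity in every sample. The sum was 6591 CPM ± 1076 without and 9469 ± 1422 with an identity (SD, n = 4), lower in 4 of 4 samples. The study's 7 progenitor markers summed to 590 and 600 CPM in control and 942 and 1148 CPM in PP121 neurons without identity, against 317 to 445 CPM in neurons with one. In progenitor 2 nuclei, the class richest in them, the sum was 1914 to 2434 CPM, and in progenitor 1 nuclei 649 to 934 CPM. Mesenchymal markers stood at 153 to 284 CPM without and 152 to 220 with an identity, against 4873 to 5514 CPM in mesenchymal nuclei. Mesenchymal markers were thus low in both groups.

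**Figure D3:**
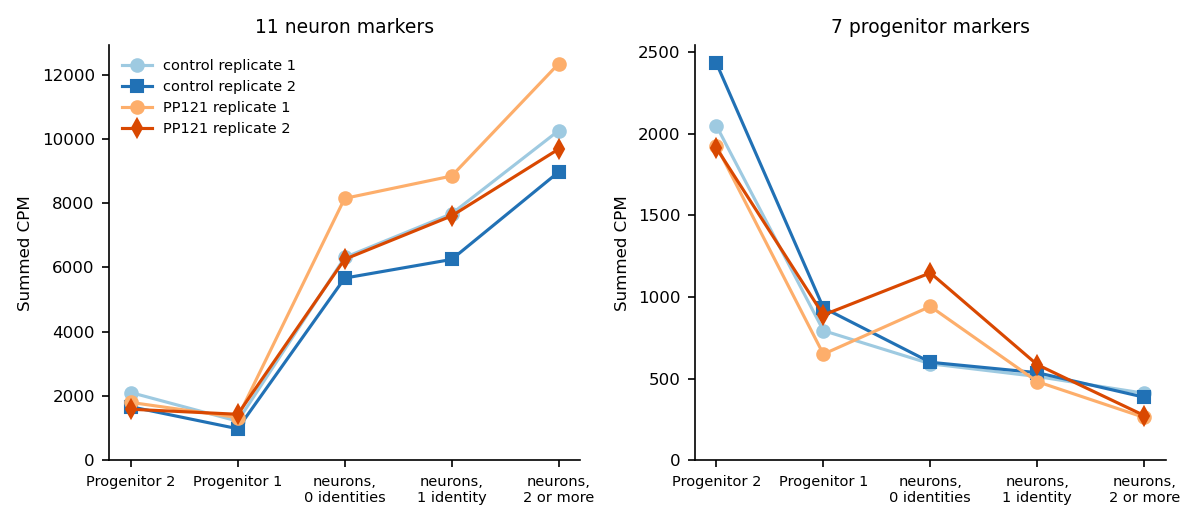
Summed CPM of the study's neuron markers (left) and progenitor markers (right) in 2 progenitor classes and in neurons with 0, 1 and 2 or more identities, with a line per sample. Neuron markers rise and progenitor markers fall with the number of identities, and the 2 PP121 samples have the highest progenitor sums at 0 identities, 942 and 1148 CPM.

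When all annotated nuclei of the 4 samples were clustered together, 35.6% of neurons without identity fell in clusters held mostly by progenitors, against 8.71% of those with one. By sample the shares were 42.1% and 46.9% in the controls against 20.3% and 21.4% with PP121. For neurons with an identity they were 9.90%, 17.4%, 4.12% and 4.02% in the same order. A cluster of which 72.1% was progenitor 1 held 197 of the 590. The remaining nuclei lay in neuron clusters, and the gene tests below were also run on those alone. The study's own neuron subtypes held the nuclei unevenly. In control, subtype EN 1 held 53.5% and 57.8% of them, and 24.9% (21.3 to 28.7) and 19.3% (15.5 to 23.6) of EN 1 neurons lacked an identity, while EN 3 had 3 of 403 and 0 of 132 (a count of 0 allows up to 2.27%). In PP121 samples, whose subtypes are named separately, EN F held 31.9% and 50% and EN A 34.8% and 30.0%, and EN C had 0 of 262 and 0 of 36.

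The deposited percent of ribosomal counts had a median of 1.12%, 0.837%, 1.00% and 0.871% without identity, against 0.839%, 0.691%, 0.703% and 0.672% with one. The share of nuclei called G1 was lower, at 35.4%, 41.4%, 53.6% and 45.7% against 55.8%, 53.0%, 66.0% and 65.6%. Within neuron clusters the G1 share was lower in 3 of 4 samples. Phase calls alone do not show cycling, and the part of these measures in the gene differences was not tested.

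Counts were next summed over the nuclei of each group and sample and compared with edgeR's quasi-likelihood test with the sample as a block (two-sided, Benjamini-Hochberg adjusted p under 0.05). Of 16920 genes tested, 1392 differed (8.23%), 606 higher (3.58%) and 786 lower (4.65%) in neurons without identity, with the 29 transmitter genes left out. The genes that passed included 14 of 36 voltage-gated channels, 6 of 26 synaptic vesicle genes and 22 of 58 adhesion genes that were lower, and all 6 of the study's progenitor markers that could be tested, which were higher. The groups of 4 summed samples did not overlap for 679 genes higher (4.01% of those tested) and 1014 lower (5.99%). The count depends on the groups that are set against each other. It was 626 within neuron clusters (3.74% of genes, 240 higher or 1.43% and 386 lower or 2.3%) and 285 against neurons with exactly 1 identity (2.01%). After thinning it was 782 of 11669 genes tested (6.7%). Without the sample as a block it was 186 (1.1%), without PP121 replicate 1 it was 475 (2.8%) and without control replicate 1 it was 649 (3.93%). Of the 1392 genes, 528 also passed in the same direction within neuron clusters, and 0 of them had the opposite sign there.

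CDH18, a cadherin of neuronal membranes, was the protein-coding gene with the largest fall by the rule used. It stood at 117 and 72.4 CPM in control and 86.0 and 9.85 CPM in PP121 neurons without identity, against 595, 516, 760 and 312 CPM with one, so every sample was lower and the groups did not overlap (log2 difference -2.94, SE 0.204, adjusted p = 8.1e-07). MAST4, a microtubule-associated kinase, had 35.4 to 64.8 CPM without and 175 to 368 with an identity (-2.42, SE 0.123, adjusted p = 8.66e-08). SLC35F4, a member of a solute carrier family, had 23.6 to 130 against 196 to 601 CPM (-2.70). GALNTL6 (-2.83), PLD5 (-2.81), CNTN6 (-2.66) and the synaptic vesicle protein gene SV2C (-2.57) were lower on the same log2 scale. GABRG3, a subunit of the GABA-A receptor, fell by 2.66. Their antisense neighbours CDH18-AS1 and GABRG3-AS1 were lower too (-3.48 and -3.11), but whether strand was used in counting is not given, so those reads may be shared.

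Among the rises, STK3, a kinase of the Hippo pathway, was at 97.7, 105, 133 and 154 CPM without identity and 48.2, 56.3, 40.8 and 53.1 CPM with one (1.27, SE 0.144, adjusted p = 7.86e-05). The groups did not overlap. NFIA, a nuclear factor of late progenitors and glia, was at 49.99, 90.5, 64.8 and 264 CPM against 39.1, 52.0, 21.3 and 47.4 (1.29, SE 0.254, adjusted p = 0.00581), higher in 4 of 4 samples with some overlap. VIPR2, a receptor for vasoactive intestinal peptide, rose by 1.42, the thyroid hormone receptor gene THRB by 1.35 and PDE3A, a phosphodiesterase, by 1.21. MEGF6, LMO1, SHQ1 and SLC15A2 rose by 1.26, 1.25, 1.21 and 1.17. Against neurons with exactly 1 identity, STK3 and SHQ1 stayed past the threshold among these 9 genes, and the falls of CDH18, MAST4, SLC35F4, GALNTL6, PLD5 and CNTN6 did also.

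**Figure D4:**
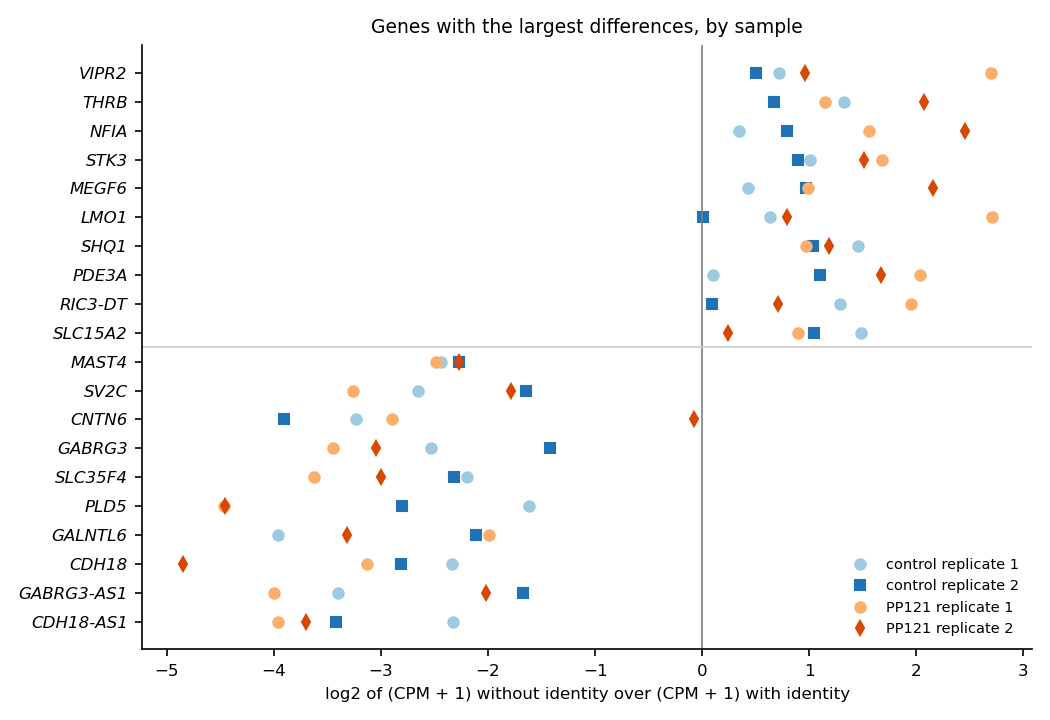
Difference between neurons without and with an identity for the 10 largest falls (below) and rises (above), as log2 of the ratio of CPM + 1 on the horizontal axis, with a point per sample. The falls reach further from 0 than the rises, and CDH18 and MAST4 are below -2 in each sample.

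Of the study's neuron markers, 6 of 11 fell and 0 rose (median log2 -0.46 over the list, 0.01 over all genes tested). NRG1, a ligand of ERBB receptors, fell by 1.05, and the neuronal splicing factor RBFOX3 (-0.63) and DCX, the microtubule protein of young neurons (-0.61), fell too. DCX was at 350 to 382 CPM without and 513 to 655 with an identity. Of the progenitor markers, 6 of 6 rose (median 1.01), against 5 of 6 within neuron clusters and 1 of 6 against neurons with exactly 1 identity. The neuron markers fell in 4 of 11 and 3 of 11 in those comparisons. NOTCH1, the receptor that holds progenitors undifferentiated, rose by 1.35, PAX3 by 1.03 and PAX7, a fellow paired-box factor of dorsal neural tube and crest, by 0.99. SOX2, a factor of neural progenitors, rose by 0.81 (adjusted p = 0.0343), but after thinning its difference was -0.12. SOX2 did not pass in edgeR without control replicate 1, PP121 replicate 1 or PP121 replicate 2 (adjusted p = 0.100, 0.175 and 0.0882). MEF2C rose by 0.67. For NOTCH1 the control values of 27.0 and 15.97 CPM lay near the 13.1 and 17.3 CPM of neurons with an identity, while the PP121 values of 57.0 and 59.1 lay above 11.8 and 15.2.

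In the list of cytoskeleton and maturity genes 11 of 20 fell and 0 rose (55.0% against 8.23% of all genes), with RBFOX1 at 429 to 541 CPM against 624 to 1389 CPM (-1.04), ANK3, the organiser of the axon initial segment, at -0.997, NEFM at -0.92 and GAP43 at -0.89. Voltage-gated channels fell in 14 of 36, led by the calcium channel subunit gene CACNA2D3 (-2.28) and the potassium channel genes KCND2 (-2.25), KCNMA1 (-1.21) and KCNB2 (-1.03). Transmitter receptors fell in 15 of 37, among them GRM8 (-2.40) and the AMPA receptor subunit gene GRIA1, which was at 43.3 to 115 CPM without and 210 to 391 CPM with an identity (-1.88). Synaptic vesicle and release genes fell in 6 of 26. SYN3, a synapsin, was at 169 to 197 CPM against 414 to 571 (-1.43, SE 0.105, adjusted p = 1.37e-06), CADPS fell by 1.04 and RIMS1 by 0.83. No member of these lists rose. Within neuron clusters, where 3.74% of all genes passed, the falls were 5 of 20 cytoskeleton genes, 9 of 35 channels, 13 of 37 receptors and 4 of 26 vesicle genes. Against neurons with exactly 1 identity, where 2.01% passed, they were 4 of 18, 6 of 31, 7 of 31 and 3 of 25. Neuropeptide and granule genes fell in 4 of 13 (SCG2 -1.02, PAM -0.67, PCSK2 -0.66, CPE -0.59). They fell in 1 of 14 within neuron clusters and in 2 of 11 against neurons with exactly 1 identity. SCG2 did not pass in edgeR without control replicate 1, PP121 replicate 1 or PP121 replicate 2 (adjusted p = 0.222, 0.180 and 0.0713).

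The shares of the next lists stand beside 8.23% of all genes tested. Adhesion and guidance genes fell in 22 of 58 and rose in 2, 41.4% in all. Within neuron clusters 16 fell and 3 rose, and against neurons with exactly 1 identity 14 of 56 fell and 0 rose. EPHA6 fell by 2.20 and CNTNAP4 by 2.04, while EPHA4 rose by 0.80 and DCC, the netrin receptor, by 0.54. Among factors of central and sensory neurons 4 of 19 fell (21.1%), and 3 of 18 within neuron clusters. PAX8 fell by 2.14, PAX2 by 1.43, ONECUT1 by 1.18 and the neurotrophin receptor gene NTRK3 by 0.60; PAX2 and PAX8 mark inhibitory interneurons of spinal cord and hindbrain. Against neurons with exactly 1 identity neither PAX2 (adjusted p = 0.413) nor PAX8 (0.194) passed. Enteric and autonomic lineage genes had 1 of 13 higher (CASZ1, 0.88) and 1 lower (GFRA2, the neurturin receptor, -1.05). The call on GFRA2 was lost when any of the 4 samples was left out (adjusted p = 0.0607 to 0.145 in edgeR), and within neuron clusters 2 genes of the list were higher and 0 lower. Against neurons with exactly 1 identity 0 of 12 were higher and 2 lower. Of 21 proneural genes DLL3 rose (0.88) and SOX4 fell (-0.45), a share of 9.52%, near that of all genes, and within neuron clusters 3 were higher and 0 lower. Against neurons with exactly 1 identity 0 of 19 proneural genes were higher and 1 lower. Of cell cycle genes 3 of 16 rose (18.8%), ATAD2 by 0.94, the replication helicase gene MCM6 by 0.90 and the DNA polymerase gene POLA1 by 0.60. Within neuron clusters POLA1 alone of these passed (adjusted p = 0.0301). Against neurons with exactly 1 identity 1 of 12 cell cycle genes was higher and 0 lower.

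Levels across identities show where the falling genes were highest, as a description in which identities share nuclei. CDH18 averaged 71.4 CPM without identity, 199 in neurons with exactly 1 identity and 700 in those with 2 or more, and it was at 1131 in GABAergic, 1010 in nitrergic and 230 in glutamatergic neurons. PLD5 averaged 83.9 CPM without identity, 1333 in cholinergic, 941 in GABAergic and 218 in glutamatergic neurons. PAX2 averaged 167 CPM without identity, 976 in cholinergic and 305 in glutamatergic neurons. PAX3 ran the other way, at 341 CPM without identity, 235 with exactly 1 and 105 with 2 or more, and it was at 209 in glutamatergic and 69.7 in GABAergic neurons. Progenitor 2 nuclei had 721 CPM of PAX3 and 44.6 of CDH18. The order of PAX3 rested on the PP121 samples: without identity it was at 162, 148, 558 and 494 CPM, and with exactly 1 identity at 146, 222, 244 and 328 CPM, so control replicate 2 was lower without identity.

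PP121 was then compared with control within the neurons without identity. Of 11242 genes tested, 27 differed without a block (0.24%), 25 higher (0.222%) and 2 lower (0.0178%) in PP121 samples. With the replicate number as a block, which pairs samples by day, 900 passed (8.01%), 610 higher (5.43%) and 290 lower (2.58%). That fit leaves 1 residual degree of freedom, and its count was not stable. DESeq2 with the same block called 131, and edgeR with the block after thinning called 34 of 6074 genes (0.56%). Within neuron clusters 9 of 9635 genes passed without (0.0934%) and 49 with the block (0.509%). Without control replicate 1 most of the 27 genes no longer passed, while they still did when any other sample was left out. Each such fit rests on 1 sample of a treatment, so its count is not given. Both PP121 samples lay beyond both controls for 47.2% of the genes tested.

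RYR3, a calcium release channel of the endoplasmic reticulum, was at 14.6 and 8.52 CPM in the controls against 113 and 84.7 CPM with PP121 (log2 difference 3.08, SE 0.348, adjusted p = 0.014). PAX3 was at 162 and 148 CPM in the controls against 558 and 494 CPM with PP121 (1.81, SE 0.225, adjusted p = 0.0169). Both also passed within neuron clusters without a block. TMEM132B was at 54.5 and 58.6 against 236 and 262 CPM (2.19), and SLCO6A1 at 61.8 and 83.1 against 277 and 372 CPM (2.22). Other rises without a block were NCKAP5 (2.57), SLC6A16 (2.29), ROR1, a WNT5A receptor (2.25), and DACH2 (2.22). PWRN1 (2.19), PWRN4 (2.15), MYO1E (2.04) and ST18, a zinc finger factor of newborn neurons (1.58), rose too. None of these genes passed within neuron clusters without the block. Except for PAX3 and ST18, named from gene lists, the naming rule itself required both PP121 samples beyond both controls. The 2 falls were DLGAP2, a postsynaptic scaffold gene, at 76.9 and 40.5 against 10.1 and 3.94 CPM (-2.90), and DYNC1I1, a dynein intermediate chain gene, at 61.2 and 52.2 against 10.1 and 11.8 CPM (-2.35). The PP121 samples summed to 894909 and 507864 UMIs in these neurons, so such low values rest on few UMIs.

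With the replicate block, under which 8.01% of all genes passed, 4 of 6 progenitor markers were higher in PP121 (PAX3, NOTCH1 by 1.44, NFIA by 1.05 and PAX7 by 0.99) and MEF2C was lower. NFIA was at 49.99 and 90.5 CPM in the controls against 64.8 and 264 with PP121, so its groups overlap, and without the block it did not pass (adjusted p = 0.317). Without the block, where 0.24% of all genes passed in edgeR, the list counts were 1 of 6 progenitor markers (PAX3), 1 of 17 genes of newborn neurons (ST18) and 0 of 10 enteric and autonomic genes. With the block, 8 of 17 genes of newborn neurons were higher and 0 lower, led by EBF2 (1.90), DLL3 (1.67), ST18 (1.597) and HES6 (1.42). Of enteric and autonomic genes 4 of 10 were higher with the block, among them GFRA1, a GDNF receptor (1.92), at 21.9 and 26.6 CPM in the controls against 71.5 and 112 CPM with PP121. PBX3 and MEIS2 were higher by 0.86 and 0.57. FOXP2 (2.78), PDPN (2.85), EYA2 (2.66), CNTN4 (2.59) and TEAD2 (2.51) were among the largest rises with the block, and PLD5 (-3.21), SYT4, a synaptotagmin (-2.48), and MAB21L1 (-2.45) among the largest falls. None of these 8 genes passed without the block.

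The difference between PP121 and control was also compared between neurons without and with an identity, as an interaction in edgeR. It depended on identity for 73 of 18332 genes (0.398%), 51 (0.278%) with a larger and 22 (0.12%) with a smaller value of the PP121 difference in neurons without identity. RYR3 was at 38.7, 25.3, 36.3 and 40.5 CPM in neurons with an identity, so that the PP121 difference above was larger without identity by 2.84 (SE 0.341, adjusted p = 0.000568). PAX3 was at 110, 163, 123 and 186 CPM with an identity (1.55, SE 0.246). NCKAP5 was at 115 and 150 CPM in control and 406 and 1101 CPM in PP121 neurons without identity, and at 115, 172, 147 and 289 CPM with one (1.78). HES6, from the list of newborn neurons, differed by 1.64, NFIA by 1.497, FOXP2 by 2.16 and JAG1, a Notch ligand, by 1.89. JAG1 was at 23.6 and 18.1 CPM in control and 77.1 and 86.6 CPM in PP121 neurons without identity.

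In the other direction, PLD5 was at 254 and 50.05 CPM in control and 25.7 and 5.91 in PP121 neurons without identity, against 779, 355, 590 and 151 CPM with one (-2.51). The value of 5.91 CPM rests on few UMIs. FSTL4 differed by -2.42, DLGAP2 by -2.12, DYNC1I1 by -2.03, the kainate receptor genes GRIK1 and GRIK3 by -1.78 and -1.10, KLHL1 by -1.502, GAP43 by -1.18 and RBFOX1 by -0.99. RBFOX1 was at 429 and 541 CPM in control and 498 and 465 in PP121 neurons without identity, and at 791 and 624 in control and 1368 and 1389 in PP121 neurons with one. Without the sample as a block the interaction passed for 0 genes in edgeR (832 at an unadjusted p under 0.05), and DESeq2 with the block called 60. The calls also changed when a sample was left out, and each such fit rests on 1 sample of a treatment. After thinning 7 of 12986 genes passed (0.0539%), including RYR3, NCKAP5, SGCZ and PLD5. Within neuron clusters 77 passed, among them RYR3, PAX3, NFIA, HES6, JAG1 and PLD5. Of these, 37 had a larger and 40 a smaller value without identity, and 48 were among the 73 genes above. The neurons of the 2 treatments may have been annotated separately, and the share of no-call neurons differs between them. The part of that annotation in these differences cannot be told apart from the treatment.

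**Figure D5:**
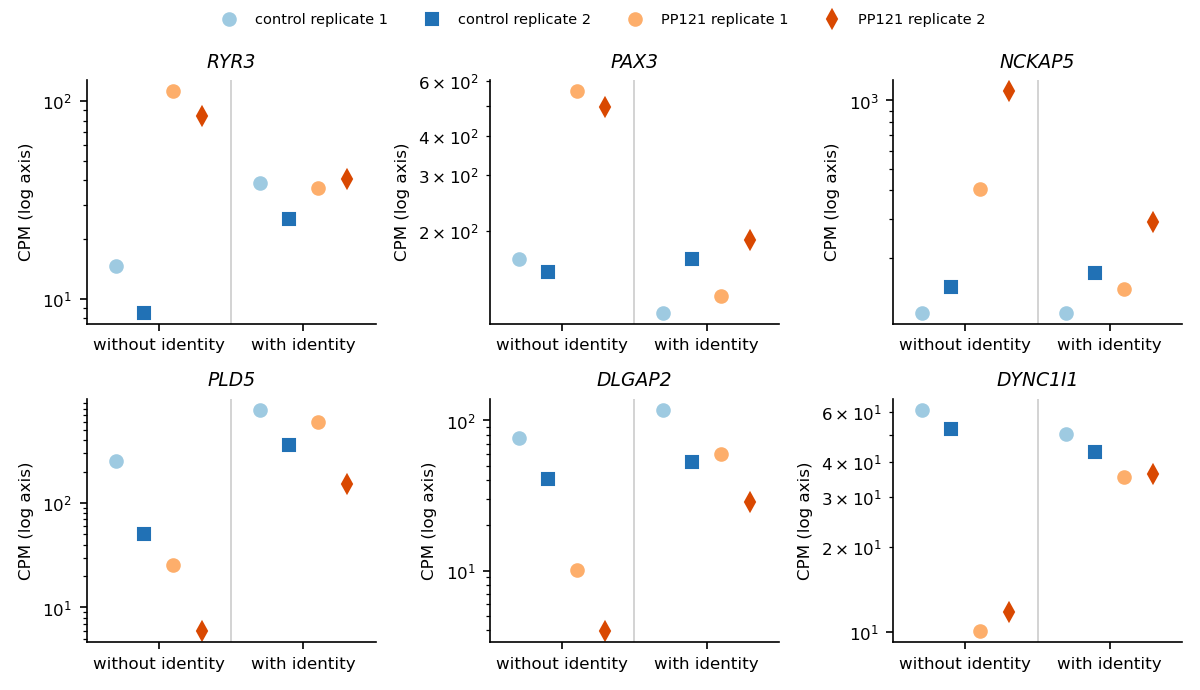
CPM on log axes of 6 genes in the 4 samples, in neurons without and with a transmitter identity. RYR3, PAX3 and NCKAP5 have both PP121 samples above both controls without identity, and PLD5, DLGAP2 and DYNC1I1 have both below. Except for PAX3, the rule that named these genes required this order.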

How the data were processed

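Single-nucleus RNA libraries (10x Genomics 3′ v3.1) of 4 samples were used. The authors deposited raw counts, the UMIs of each gene in each nucleus, for 36601 genes named by symbol, and an annotation of 14812 nuclei with their class, phase and transmitter identities. The study's methods name kallisto and bustools, and the submitters' processing notes name Cell Ranger, Seurat 4.0.4 and GRCh38. Whether strand was used is not given in the sources used here. The percent of mitochondrial and ribosomal counts was used as deposited. Neurons totalled 8755285 to 18951821 UMIs per sample, and the summed neurons without identity 507864 to 1780414, which limits genes of low level. Samples were grouped by the labels. Another deposited column of sample names disagrees with the labels for the controls and was not used. The 4 samples shared 0 to 8 barcodes per pair.

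Counts were summed per sample and group and tested with edgeR 4.0.16 (R 4.3.3), quasi-likelihood, two-sided, TMM normalization and edgeR's filter on low counts. Neurons without and with identity were compared with the sample as a block; PP121 was compared with control without a block, and the interaction with the sample as a block. CPM are counts per 1000000 summed UMIs. Nuclei were thinned to 2000 UMIs, leaving out shallower nuclei (5 of 590 without and 15 of 5731 with an identity). All nuclei were clustered jointly with scanpy 1.11.5 (2000 variable genes, 18 components, 20 neighbours, Leiden resolution 0.2). The caller of doublets marked 1 of 14812 nuclei and has not worked, so doublets were not removed. Replicate 1 is dated day 42 and replicate 2 day 38 in both groups, so the number pairs samples; deviations from group means correlated across genes at 0.175 without and 0.411 with identity. On simulated counts with 200 changed genes, the comparison without against with identity found a share of 0.97 of those changed by a factor of 2 (16609 genes), the PP121 comparison 0.59 (10779 genes) and the interaction 0.2 (17743 genes). The changed genes were drawn from those above a set level only. All genes had the same dispersion, and samples differed in depth alone. These shares are thus no measure of the power of the tests on the real counts.

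Core transmitter genes were NOS1, CHAT, SLC18A3, TH, DBH, TPH1, TPH2, SLC17A6, SLC17A7, SLC17A8, GAD1, GAD2 and SLC32A1. Genes named are, per test, the 10 largest rises and falls past the threshold with a mean of at least 10 CPM. They also needed the same direction in all samples or, between treatments, both samples of a treatment beyond both of the other. For these genes the direction or order of the samples thus follows from the rule. Clone-based names, LINC genes and transmitter genes were left out. The 4 largest changes of each gene list were named too, without this condition. SOX2, MEF2C, EPHA4 and DCC were named after their values were seen. Some genes that the rule chose are not reported here. The members and lists were chosen with earlier results of these data known. Alternatives were DESeq2 1.42.0, other filters, thinning, joint clusters, other comparison groups, blocks and leaving out each replicate.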

Additional observations from a re-analysis of the deposited data

Results flagged for a closer look

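The difference in median UMIs between neurons without and with a transmitter identity was far larger in PP121 replicate 2, at -2781.5 UMIs, than in the other 3 samples, where the nearest stood at -1668.5 and the range ended at -1536. It was 1 of 22 sets of 4 values tested for such a gap, and chance alone is set to mark about 1 in 20.

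Neurons with no identity call, which enter only an alternative count of the share, made up 6.65% of enteric neurons in the PP121 samples on average, against 0.988% in control. They numbered 143 and 61 in PP121 and 16 and 16 in control samples, and their median depth was 14387 and 12198 UMIs in the PP121 samples.

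The difference between PP121 and control depended on transmitter identity for 73 genes by the interaction test in edgeR, 51 in the direction of a larger and 22 of a smaller PP121 value in neurons without identity. Within neuron clusters 77 genes passed, 37 in the larger and 40 in the smaller direction.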

How the results depend on the processing

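Between PP121 and control, the share of neurons without identity differed by -3.26 percentage points; it was 2.01 with no-call neurons counted as lacking an identity and 2.98 with groups drawn from UMIs of the listed genes, both of the opposite sign. It was -0.927 within neuron clusters and -0.270 with groups from core genes, an alternative added after seeing the data. Within replicate pairs, the replicate block, it was -3.80 on day 42 and -2.72 on day 38, and leaving out a replicate gave -3.63 to -2.89. The difference in median UMIs was -1903 and -991 against exactly 1 identity. The difference in the share of nuclei with a UMI of a transmitter gene was -11.1 percentage points, and -19.4 for core genes.

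Each percentage here is of the genes that the fit tested. Genes that differed between neurons without and with identity numbered 1392 (8.23%), and 782 after thinning (6.7%), 626 within neuron clusters (3.74%) and 834 from 5000 UMIs (5%, added). They numbered 186 with no replicate block (1.1%, no sample block) and 285 against exactly 1 identity (2.01%). With groups from UMIs they numbered 242 for listed genes (1.41%) and 774 for core genes (4.3%, added). Without a replicate they numbered 475 to 1451 (2.8% to 8.12%). Between PP121 and control 27 differed without a block, and 117 with DESeq2, 427 with no filter, 151 with at least 10 counts in every library, 9 within neuron clusters, 75 from 5000 UMIs, 900 with the replicate block, 49 with block and neuron clusters, 131 with block and DESeq2 (both added), and 24 to 843 without a replicate. The interaction counted 73, and 189 with no filter, 7 after thinning, 0 with no replicate block, and 78 to 253 without a replicate. The causes were not tested; thinning and neuron clusters leave fewer UMIs or nuclei.

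Of the single genes named or chosen by the rule, 1138 comparisons with an alternative kept direction and side of the threshold, 343 no longer passed, 107 newly passed and 10 changed sign. SOX2 was -0.12 after thinning. With groups from UMIs of listed genes SHQ1 was -0.00865, NEFM 0.11, GRM8 0.33, GFRA2 0.0217, SOX4 0.0537 and ATAD2 -0.00112; with core genes SCG2 was 0.11 and SOX4 0.0141. The difference of NFIA between PP121 and control ran from -0.0808, without PP121 replicate 2, to 2.04, without PP121 replicate 1. Doublet removal was not run, since the caller found 1 candidate nucleus.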

Other observations

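Gene lists not described above are compared here between neurons without and with a transmitter identity, where 8.23% of all genes differed. Of the nuclear noncoding and mitochondrial list, NEAT1, a noncoding RNA of nuclear paraspeckles, rose by 0.59 among 14 genes tested (7.14%). Of the immediate early and stress list, MDM2, the ubiquitin ligase of p53, rose by 0.57 among 19 (5.26%). Both shares were below that of all genes. Within neuron clusters and against neurons with exactly 1 identity, 0 genes of either list passed. Of the glia and radial glia list, QKI, an RNA-binding protein, rose by 0.53 and the intermediate filament gene VIM by 0.52. SLC1A2, a glutamate transporter, fell by 1.00, so that 3 of 11 tested differed (27.3%). Within neuron clusters 3 glia genes were higher and 1 lower. Against neurons with exactly 1 identity 0 of 10 were higher and 1 lower. QKI was at 573 to 687 CPM without and 354 to 552 CPM with an identity, with no overlap.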
